A study of Mus musculus with 6 samples.

Results

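The E proteins and their Id antagonists were examined in bone marrow hematopoietic stem and progenitor cells sorted by labelled dose of Erg, an ETS family transcription factor gene. The members are all probe sets that the probe table assigns to Tcf3, Tcf4, Tcf12, Id1, Id2 or Id3 and to no other symbol. These are 19 of 45037 probe sets, with 14 for the 3 E protein genes and 5 for the 3 Id genes. The study sorted LSK cells, which lack lineage markers and carry the surface proteins Sca-1 and c-Kit, from 3 adult mice (278, 279 and 281) on a mixed 129-B6 background. Each mouse was Mx1Cre;Ergkd/+;R26Y, so both populations descend from cells that carried 1 Erg knockdown allele, the interferon-inducible Mx1Cre and a Rosa26 reporter of Cre action. The YFP-negative cells are labelled Erg-knockdown, with about 40% less Erg, and the YFP-positive cells Erg-restored. The sort was on the YFP reporter, so the labelled Erg dose and Cre action itself cannot be told apart. Each population of each mouse gave 1 Affymetrix array, 6 in all, with the values as linear intensities, and how precise a value can be is set by this number.

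E proteins are basic helix-loop-helix transcription factors that bind a short DNA element, the E-box, as dimers with each other or with tissue-specific partners such as TAL1 and LYL1. Id proteins have the helix-loop-helix but no basic region, so an E protein held by an Id protein does not bind DNA. In bone marrow, E proteins are known for opening the lymphoid programs, TCF4 for the plasmacytoid dendritic cell, and ID2 for innate lymphoid and dendritic fates.

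Sequences upstream of Tcf12 and Id2 are shown because Tcf12 held the member probe set with the smallest p and Id2 differed most between arrays. The promoter table was searched by symbol for the members other than Tcf4, and matched Tcf3, Tcf12, Id2 and Id3 but not Id1. The sequences are from RefSeq, build GRCm38.p6, are given 5′ to 3′ on the minus strand that both genes occupy, and end at the base before the annotated gene. Tcf12 spans chr9:71844252-72111893 and its stretch of 176 bases is chr9:72111894-72112069. Id2 spans chr12:25093799-25096092 and its stretch of 250 bases is chr12:25096093-25096342. Capitals mark each match to CANNTG, the E-box, which reads the same on both strands.
Tcf12: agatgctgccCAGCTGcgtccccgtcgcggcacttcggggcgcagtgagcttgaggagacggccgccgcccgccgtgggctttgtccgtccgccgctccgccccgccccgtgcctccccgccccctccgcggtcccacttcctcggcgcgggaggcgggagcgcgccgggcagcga
Id2: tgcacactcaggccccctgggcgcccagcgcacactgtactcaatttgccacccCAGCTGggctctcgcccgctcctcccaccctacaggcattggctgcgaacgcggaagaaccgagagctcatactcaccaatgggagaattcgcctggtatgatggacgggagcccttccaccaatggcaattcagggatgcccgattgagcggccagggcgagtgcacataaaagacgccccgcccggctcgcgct
Each stretch holds 1 match, and both read CAGCTG, at base 11 in the Tcf12 stretch and at base 55 in the Id2 stretch. Other Tcf12 promoter windows lie inside the annotated gene and hold no CAGCTG in their 250 upstream bases. There the window chr9:72111152-72111451 holds 1 CANNTG and chr9:71896047-71896346 holds 0. Among 32851 promoters, CANNTG occurs in 54.7% of stretches of 176 bases and in 66.2% of those of 250 bases, and CAGCTG in 8.995% and 13.0%. The core letters of ETS factor elements, GGAA on either strand, occur once in the Tcf12 stretch (86.0% of promoters hold it at that length) and 2 times in that of Id2 (93.4%). A match describes letters and not a bound site.

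As a check of the labels, the brighter Erg probe set (1440244_at) read 2970, 2754 and 2706 in the knockdown-labelled cells of mice 278, 279 and 281, against 2731, 2901 and 2659 in the restored-labelled cells. The groups overlap, with a log2 difference of 0.024 ± 0.089 (SE; adjusted p = 0.954, limma). The other (1425370_a_at) gave -0.11 ± 0.088 and was lower in the knockdown-labelled array of all 3 mice (adjusted p = 0.818). The labelled reduction was not seen, so the groups are called by their labels throughout. Array means lay between 1031 and 1071 and medians between 135 and 157. The restored-labelled array of mouse 279 had the highest log2 ratio of 3′ over 5′ control signal, 0.706, and the other 5 arrays lay between 0.470 and 0.539. Among LSK genes, Kit read between 4670 and 5206 in knockdown-labelled and between 3972 and 4572 in restored-labelled cells, without overlap, and Cd34 between 9090 and 9512 and between 8800 and 9268. The Sca-1 gene Ly6a was not analysed here.

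Differences are given as knockdown-labelled minus restored-labelled log2(intensity + 16), from a limma fit with the mouse as a block, with standard errors and 95% intervals. Of the 19 probe sets, 15 reached the filter on low values, a mean level of 143 over all arrays, which 22519 probe sets reached. Of these 15, 13 belong to E proteins and 2 to Id2. No member passed an adjusted p of 0.05, and neither did any other probe set (0%). At an unadjusted p below 0.05 there was 1 member, a dim Tcf12 probe set, on the higher side, where 4.75% of all probe sets lay (1.33% on the lower side, 6.08% in all). Of all probe sets at that mark, 78.1% were on the higher side, but 49.3% after quantile normalization and 34.9% with each array centred on its median. Centring shifts the median difference of all probe sets by -0.11. In a bulk sort, more cells of a type and more RNA per cell cannot be told apart.

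**Figure D1:**
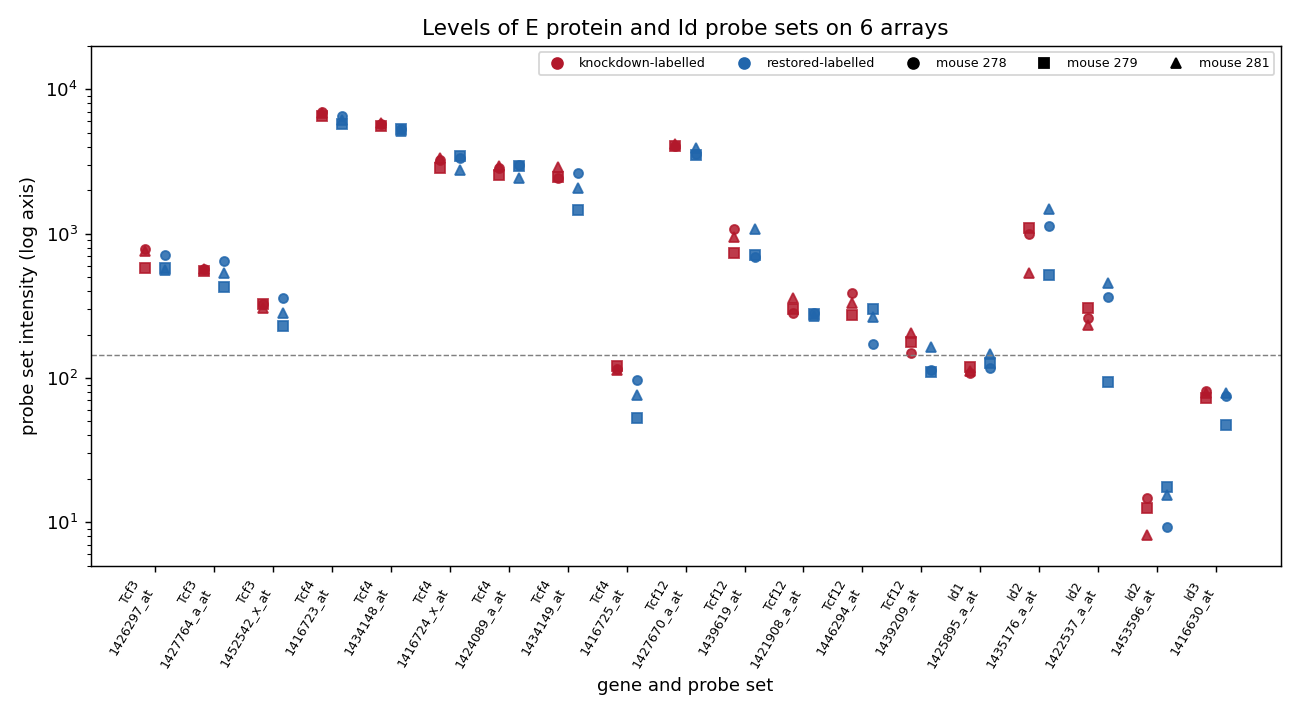
Intensity on a log axis of all 19 member probe sets, with knockdown-labelled arrays in red to the left of restored-labelled arrays in blue and a marker shape for each mouse. The dashed line is the filter intensity of 143, and the 4 probe sets under it are 1 each of Tcf4, Id1, Id2 and Id3.

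Tcf4 was read by 6 probe sets, the brightest of the members among them. Tcf4 encodes the E protein that drives plasmacytoid dendritic cell identity and spans chr18:69343429-69687967. Its brightest probe set (1416723_at) read 6928, 6493 and 6879 in the knockdown-labelled cells of mice 278, 279 and 281, against 6502, 5799 and 6096 in the restored-labelled cells. Each knockdown-labelled array lay above its partner, but the groups overlap, since the restored-labelled array of mouse 278 stood just above the knockdown-labelled array of mouse 279. The difference was 0.14 ± 0.082 (adjusted p = 0.799, limma), with an interval from -0.086 to 0.37.

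A second bright Tcf4 probe set (1434148_at) read 5755, 5617 and 5818 in the knockdown-labelled cells, against 5354, 5343 and 5167 in the restored-labelled cells. Here the groups do not overlap. The difference was 0.12 ± 0.083 (adjusted p = 0.812, limma), with an interval from -0.11 to 0.35, and it was 0.0088 with arrays centred on the median. Over all probe sets the knockdown-labelled arrays all lay above the restored-labelled ones in 9.6% and below them in 4.36%. The probe set 1434149_at, designed from the same accession, read 2441, 2457 and 2891 in the knockdown-labelled cells, against 2642, 1449 and 2074 in the restored-labelled cells. Its restored-labelled array of mouse 279 stands low, and mouse 278 went the other way. The difference was 0.37 ± 0.20 (adjusted p = 0.799, limma).

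The Tcf4 probe sets did not all read alike. The pair 1416724_x_at and 1424089_a_at followed each other over the 6 arrays (Pearson r = 0.98, a description over arrays that share mice) and followed the brightest probe set little (r = 0.12 and 0.22). The probe set 1416724_x_at read 3252, 2866 and 3339 in the knockdown-labelled cells, against 3319, 3454 and 2751 in the restored-labelled cells. The groups interleave, with differences of -0.03, -0.27 and 0.28 in mice 278, 279 and 281 and -0.0065 ± 0.14 in the fit (adjusted p = 0.993, limma). For 1424089_a_at the fit gave -0.0071 ± 0.13 (adjusted p = 0.992). Probe sets ending in _a_at are built to read several transcripts of a gene, and those ending in _x_at hold probes that may match other sequences. Which Tcf4 transcripts each one reads was not analysed here. The dim probe set 1416725_at read 115, 121 and 113 in the knockdown-labelled cells, against 97.0, 52.7 and 76.5 in the restored-labelled cells. The groups do not overlap, and in a fit with no filter the difference was 0.56 ± 0.19 (adjusted p = 0.817, limma). All its values lie under the filter, so its size depends on the added 16.

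Tcf12, the E protein gene also called HEB, is known for its part in early T-cell development. All 5 of its probe sets reached the filter and had positive differences, from 0.15 to 0.43 without further scaling. They stayed positive after quantile normalization (0.076 to 0.35) and with centred arrays (0.047 to 0.33). Of all probe sets, 54.8%, 46.4% and 31.5% had a positive difference in these fits, in that order. The 5 include 1439209_at, which reached the filter through the group where it is high. The brightest (1427670_a_at) read 4030, 4029 and 4181 in the knockdown-labelled cells of mice 278, 279 and 281, against 3586, 3521 and 3903 in the restored-labelled cells. The groups do not overlap, and the mice gave 0.17, 0.19 and 0.10. The difference was 0.15 ± 0.082 (adjusted p = 0.799, limma), with an interval from -0.076 to 0.38, and it was 0.047 with arrays centred on the median.

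The Tcf12 probe set 1439209_at had the smallest p of the members. It read 150, 178 and 204 in the knockdown-labelled cells, against 113, 110 and 164 in the restored-labelled cells. Each knockdown-labelled array lay above its partner, while the groups overlap, and mouse 281 was highest in both. The difference was 0.42 ± 0.11 (unadjusted p = 0.0176, adjusted p = 0.793, limma), with an interval from 0.12 to 0.72. The unadjusted p was 0.0807 without mouse 278, 0.0561 with no mouse block, 0.0539 after quantile normalization, 0.0671 with centred arrays, 0.0906 with limma's trend and robust settings and 0.159 in the 5 arrays left without the restored-labelled one of mouse 279. Its restored-labelled mean, 129, lies under the filter and its knockdown-labelled mean, 177, above it. It therefore reached the filter through the group where it is high, and the size depends on the added 16. It ran close to the brightest Tcf12 probe set over the 6 arrays (r = 0.95).

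The other Tcf12 probe sets were less even. The probe set 1421908_a_at read 284, 299 and 358 in the knockdown-labelled cells, against 284, 279 and 270 in the restored-labelled cells. These groups touch but do not overlap, with almost no difference in mouse 278 (0.0021), and the fit gave 0.16 ± 0.11 (adjusted p = 0.812, limma). The probe set 1439619_at read 1074, 738 and 954 in the knockdown-labelled cells, against 691, 717 and 1077 in the restored-labelled cells. The groups overlap, and mouse 281 went the other way. The fit gave 0.16 ± 0.19 (adjusted p = 0.854, limma), and without mouse 278 it gave -0.066. The probe set 1446294_at read 389, 273 and 333 in the knockdown-labelled cells, against 171, 300.0 and 265 in the restored-labelled cells. Its largest step, 1.11, came from mouse 278, mouse 279 gave -0.13, and the fit 0.43 ± 0.27 (adjusted p = 0.799, limma).

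Tcf3, whose E proteins start B-cell development, spans chr10:80409541-80433976 and was read by 3 probe sets. The brightest (1426297_at) read 781, 583 and 762 in the knockdown-labelled cells, against 716, 575 and 561 in the restored-labelled cells. The groups overlap, and the widest step was in mouse 281 (0.43, with 0.12 and 0.018 in mice 278 and 279). The fit gave 0.19 ± 0.12 (adjusted p = 0.799, limma). The other Tcf3 probe sets share the source accession D29919 and followed each other over the arrays (r = 0.96). The probe set 1427764_a_at read 566, 548 and 570 in the knockdown-labelled cells, against 651, 427 and 532 in the restored-labelled cells. The knockdown-labelled arrays sit close together inside the range of the restored-labelled ones, where mouse 279 is lowest. Its difference was 0.082 ± 0.14 (adjusted p = 0.892, limma), and it was -0.024 with centred arrays and -0.067 in the 5 arrays left without the restored-labelled one of mouse 279. The probe set 1452542_x_at gave 0.16 ± 0.15 (adjusted p = 0.833), and without mouse 279 it gave -0.0075.

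**Figure D2:**
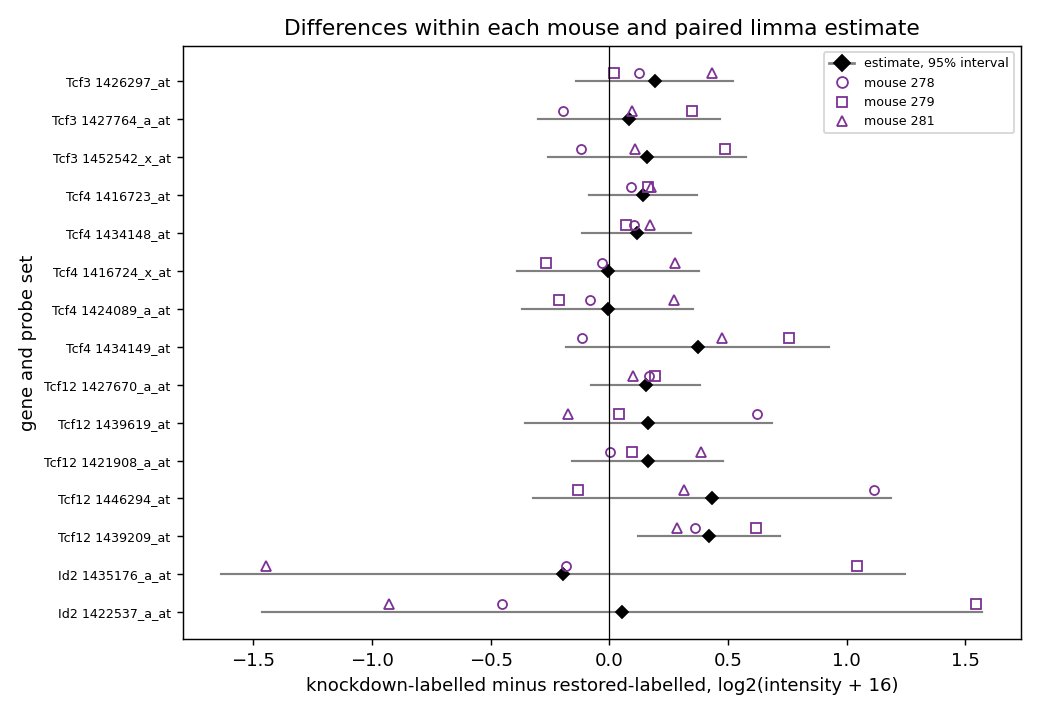
Differences of the 15 member probe sets that reached the filter, as knockdown-labelled minus restored-labelled log2(intensity + 16), with open markers for the single mice and the limma estimate with its 95% interval. The 2 Id2 probe sets have the widest intervals, and the interval of Tcf12 1439209_at is the one that leaves out 0.

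Of the 13 E protein probe sets that reached the filter, 11 had a positive difference, against 54.8% of all probe sets. Their median difference was 0.16, against 0.020 over all probe sets. In all 3 mice 6 of the 13 were higher and 0 lower, where 20.8% and 10.4% of all probe sets were. The 11 and the 6 both count Tcf12 1439209_at, which reached the filter through the group where it is high. In 3 of the 13 the knockdown-labelled arrays all lay above the restored-labelled ones, against the 9.6% given above. Probe sets of a gene share its transcripts and are not independent, so these counts describe 3 genes. After quantile normalization 11 of the 13 were positive, with limma's array weights 9 were, and without mouse 278 12 were. With arrays centred on the median 10 were, with a median of 0.051 against -0.087 over all probe sets. The gap between both medians was 0.14, which centring cannot change, and 0.12 after quantile normalization. It was 0.089 without mouse 279, 0.090 without that mouse's restored-labelled array and 0.067 with limma's array weights. Under the mouse block these weights were the same for both arrays of a mouse, so they cannot tell an array from its partner.

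**Figure D3:**
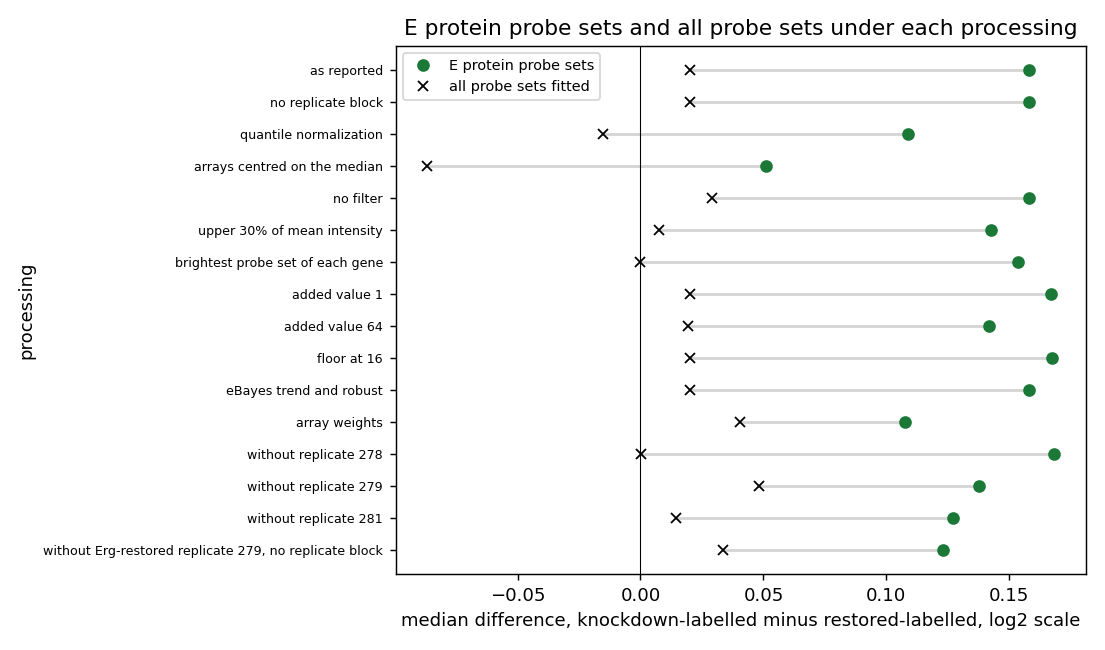
Median log2 difference (knockdown-labelled minus restored-labelled) of E protein probe sets (circles) and of all probe sets fitted (crosses) under each processing, 1 per row. The circle lies to the right of the cross in each of the 16 rows, and both lie farthest left with arrays centred on the median (0.051 and -0.087).

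Id2 differed more between arrays than any other member that reached the filter, but not by labelled Erg dose. The brightest Id2 probe set (1435176_a_at) read 992, 1087 and 538 in the knockdown-labelled cells of mice 278, 279 and 281, against 1127, 519 and 1492 in the restored-labelled cells. The groups overlap fully: the highest and the lowest array are both restored-labelled, from mice 281 and 279. The mice gave -0.18, 1.04 and -1.45, and the fit -0.19 ± 0.52 (adjusted p = 0.934, limma), with an interval from -1.64 to 1.25. The probe set 1422537_a_at read 261, 304 and 232 in the knockdown-labelled cells, against 363, 93.5 and 457 in the restored-labelled cells. It shows the same order of mice, with differences of -0.45, 1.55 and -0.93, and the fit gave 0.054 ± 0.54 (adjusted p = 0.984, limma). Without mouse 279 these 2 probe sets gave -0.81 and -0.69, and without mouse 281 they gave 0.43 and 0.55. The SD over the 6 arrays was 0.61 and 0.73 on the log2 scale, larger than that of 97.5% and 98.7% of all probe sets that reached the filter, whose median was 0.18. The third Id2 probe set, 1453596_at, read between 8.2 and 14.7 in knockdown-labelled and between 9.2 and 17.5 in restored-labelled cells, far under the filter.

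By contrast, the brightest probe sets of Tcf4 and Tcf12 had an SD of 0.099 and 0.10, and 21.95% and 22.05% of probe sets varied less. Mature neutrophil markers, of which 9 of 10 had a probe set, moved with Id2 in mice 279 and 281. Their summed intensity was 24278, 49847 and 28884 in the knockdown-labelled cells of mice 278, 279 and 281, against 23745, 16742 and 44912 in the restored-labelled cells. The lowest restored-labelled array (mouse 279) and the highest (mouse 281) are the same as for Id2, while the knockdown-labelled order differs, since Id2 was lowest in mouse 281. The defining genes were above 0 on every array, with the lactoferrin gene Ltf between 138 and 1953 in knockdown-labelled and between 153 and 1066 in restored-labelled cells. These signs in mice 279 and 281 were not particular to neutrophil markers. T-cell markers, 5 of 7 with a probe set, had median differences of 0.40, 1.87 and -0.16 in mice 278, 279 and 281. Those of NK and innate lymphoid cells had 0.37, 0.10 and -0.11. The part of any of these cells in the Id2 levels was not tested. Markers of NK and innate lymphoid cells, 8 of 10 with a probe set, summed to between 10375 and 11049 in knockdown-labelled and between 10855 and 11652 in restored-labelled cells. Most of this sum is Nkg7, at 8022 to 9050 and 8855 to 9524, so it says little of the other genes. Of the 3 at or above the filter, 1 (Gata3) stood at unadjusted p below 0.05 in limma, on the higher side. The NK receptor gene Ncr1 read between 11.4 and 48.1 in knockdown-labelled and between 16.6 and 21.0 in restored-labelled cells, under the filter on all arrays.

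**Figure D4:**
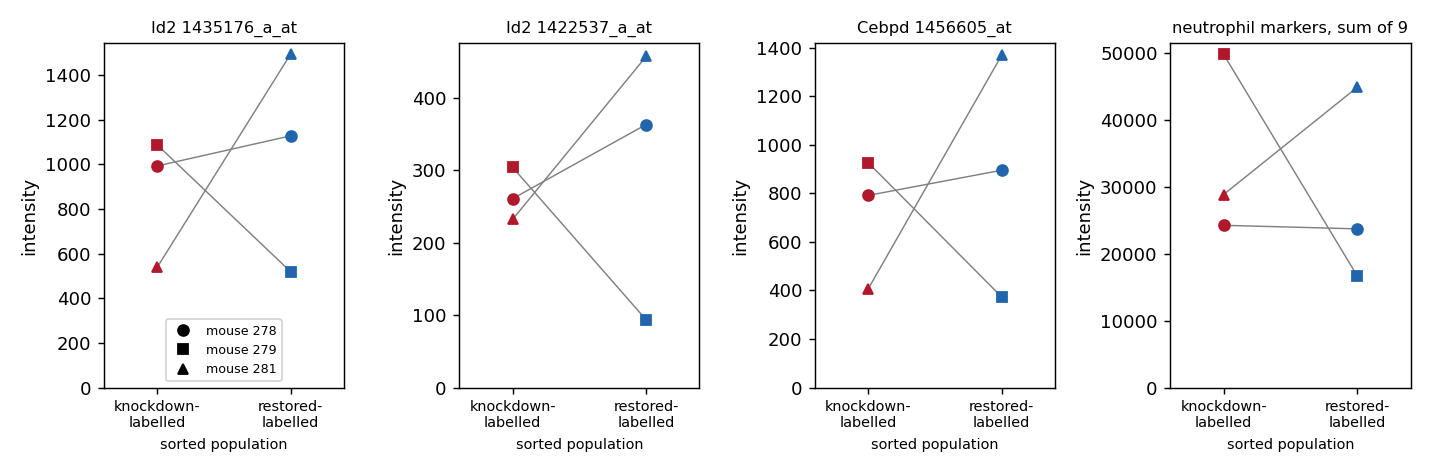
Intensity in knockdown-labelled (red, left) and restored-labelled (blue, right) cells of each mouse, joined by lines, for both Id2 probe sets that reached the filter, for Cebpd and for the sum of 9 neutrophil markers. In every panel mouse 279 is higher in the knockdown-labelled cells and mouse 281 in the restored-labelled cells.

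Id1 and Id3, known targets of BMP signalling through SMAD proteins, were dim. The Id1 probe set (1425895_a_at) read 108, 120 and 111 in the knockdown-labelled cells of mice 278, 279 and 281, against 118, 128 and 147 in the restored-labelled cells. All values but 1 lie under the filter, and each knockdown-labelled array lay under its partner, though the groups overlap. With no filter the difference was -0.18 ± 0.13 (adjusted p = 0.854, limma). The Id3 probe set (1416630_at) read 81.5, 72.5 and 79.0 in the knockdown-labelled cells, against 75.0, 46.9 and 78.4 in the restored-labelled cells. Apart from the restored-labelled array of mouse 279, which is low, these values lie close together. With no filter the difference was 0.20 ± 0.15 (adjusted p = 0.863, limma). A dim probe set does not show that a transcript is absent.

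The genes whose profile over the 6 arrays was most like each member's brightest probe set are given as a description. With so few arrays high values are common: between 34 and 504 of the named genes had r over 0.9 with a given member. For Id2 these were Cebpd, a C/EBP transcription factor gene of myeloid cells (r = 0.997), and Anxa1, an annexin gene (r = 0.997). Cebpd read 791, 927 and 406 in the knockdown-labelled cells, against 895, 373 and 1368 in the restored-labelled cells. This is the order of arrays for Id2, except that restored-labelled mouse 278 and knockdown-labelled mouse 279 are exchanged. For Tcf4 they were Dpysl2 (r = 0.995) and Mideas (r = 0.992). For Tcf12 they were Nags (r = 0.991) and Mecom, a transcription factor gene of stem cells (r = 0.986). Mecom read 5520, 5518 and 5615 in the knockdown-labelled cells, against 4654, 4633 and 5144 in the restored-labelled cells, so these groups do not overlap either (0.21 ± 0.085, adjusted p = 0.799, limma). Tcf3 was most like Gna11 (r = 0.997) and Obi1 (r = 0.994), Id1 like Hfe (r = 0.978) and Lrriq3 (r = 0.970), and Id3 like Atad2 (r = 0.997) and Gatad2a (r = 0.997).

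The rest of the network was described with gene lists, each gene by its brightest probe set. Over all 5 lists, 100 genes were at or above the filter, 10 of them at unadjusted p below 0.05 on the higher side and 2 on the lower, and none passed an adjusted p of 0.05 in limma. Of all 10824 genes by their brightest probe set, 3.08% stood at that unadjusted p on the higher side and 1.44% on the lower, and 50% had a positive difference. Among target genes of E proteins in lymphoid progenitors, 20 of 24 had a positive difference and 7 stood at unadjusted p below 0.05, all on the higher side. Their median was 0.27, against -0.00015 over all these genes. The immunoglobulin M heavy chain gene Ighm read 10569, 11129 and 4046 in the knockdown-labelled cells, against 3215, 1168 and 1438 in the restored-labelled cells. The groups do not overlap, and the difference was 2.14 ± 0.40 (adjusted p = 0.793, limma). Blnk, a B-cell receptor adaptor gene, gave 0.93 ± 0.18, the transcription factor gene Irf4 2.37 ± 0.53 and the T-lineage factor gene Bcl11b 0.83 ± 0.22, each with adjusted p = 0.793 in limma. Irf4 read 788, 744 and 213 in the knockdown-labelled cells, against 78.1, 71.6 and 106 in the restored-labelled cells. All its restored-labelled values lie under the filter, so Irf4, counted among the 7, reached the filter through the group where it is high. The members of this list were chosen with these differences known, so its count is no independent evidence of a direction.

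Markers of B and plasma cells did not all go the same way, but their sum was higher in the knockdown-labelled cells. Their summed intensity over 9 of 11 listed genes lay between 16060 and 26634 in the knockdown-labelled and between 10713 and 12296 in the restored-labelled cells. Of the 5 at or above the filter, 4 stood at unadjusted p below 0.05, all on the higher side. Mzb1 read between 523 and 986 in knockdown-labelled and between 242 and 320 in restored-labelled cells. Sdc1 read 2935 to 4618 against 1809 to 2420, and Jchain 5942 to 7296 against 3286 to 5261. Of the defining genes, Pax5 read 0.3, 18.4 and 0.7 in the knockdown-labelled cells, against 32.5, 0 and 14.0 in the restored-labelled cells, and Ms4a1 read between 27.4 and 155 and between 30.1 and 66.2. Cd79a read 161, 171 and 138 against 110, 105 and 92.0, without overlap, with all restored-labelled values under the filter. Ebf1 read 249, 128 and 122 against 252, 103 and 39.0, with overlap. Cd79b, a B-cell receptor signalling gene, read 2580, 2321 and 2327 in the knockdown-labelled cells, against 2709, 2455 and 2632 in the restored-labelled cells, lower in the knockdown-labelled array of each mouse. Ighm is in the target list too. The part of such cells in the differences was not tested. Markers of plasmacytoid dendritic cells, the type known for high Tcf4, summed to between 6933 and 8778 in knockdown-labelled and between 6070 and 9312 in restored-labelled cells, and their lectin gene Siglech read under 89 on every array. Of 5 at or above the filter, 1 stood at unadjusted p below 0.05 in limma, on the higher side. Ccr9 read 456, 558 and 373 in the knockdown-labelled cells, against 352, 106 and 212 in the restored-labelled cells, without overlap. Ly6d read 709, 567 and 235 against 310, 86.6 and 159, higher in each mouse, while Bst2, Irf8 and Cox6a2 changed direction between mice. The part of such cells in the Tcf4 levels was not tested.

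Besides the LSK and the B and plasma lists, 3 marker lists had a median difference of the same sign in all 3 mice. Markers of endothelial and stromal cells, 8 genes of which 3 were at or above the filter, summed to between 1251 and 1792 in knockdown-labelled and between 861 and 926 in restored-labelled cells, without overlap. Of the 3 at or above the filter, 2 stood at unadjusted p below 0.05 in limma, both on the higher side. Among the 3, Cldn5 read 291, 512 and 207 in the knockdown-labelled cells, against 83.1, 45.9 and 86.9 in the restored-labelled cells. It reached the filter through the group where it is high. The endothelial junction gene Cdh5, under the filter on all arrays, read between 32.4 and 42.8 in knockdown-labelled and between 21.8 and 35.2 in restored-labelled cells. Kdr and Col1a1 did not keep the same direction over the mice. Markers of megakaryocytes, 8 genes all at or above the filter, summed to between 9116 and 10252 in knockdown-labelled and between 9927 and 13251 in restored-labelled cells. Their median difference was negative in each mouse (-0.078, -0.72 and -0.56 in mice 278, 279 and 281), and 3 stood at unadjusted p below 0.05 on the lower side. Markers of macrophages, 9 genes with 6 at or above the filter, summed to between 3584 and 5375 in knockdown-labelled and between 5060 and 6396 in restored-labelled cells. Their median difference was -0.36, -0.86 and -0.57 in the same mice, with 1 gene at unadjusted p below 0.05 on the lower side. None of these genes was at 0 on any array. The part of such cells in the differences of the members and lists was not tested.

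The partners of E proteins showed few differences. Of 40 other Id and bHLH genes, 8 were at or above the filter, 3 with a positive and 5 with a negative difference, none at unadjusted p below 0.05 in limma. Lyl1, a dimer partner of E proteins in stem cells, read 4268, 4274 and 4248 in the knockdown-labelled cells, against 4492, 5461 and 4428 in the restored-labelled cells. The groups do not overlap, with the restored-labelled array of mouse 279 far above the rest, and the difference was -0.16 ± 0.10 (adjusted p = 0.803, limma). Atoh8, Bhlha15 and Mesp1, tissue-restricted bHLH genes, gave 0.40 ± 0.18, 0.19 ± 0.097 and 0.24 ± 0.13 (adjusted p = 0.799 for each, limma). The restored-labelled means of Atoh8 (138) and Bhlha15 (142.97) lie under the filter of 143.47, and their knockdown-labelled means (191 and 165) above it. Both therefore reached the filter through the group where they are high.

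Among complex partners, coactivators and corepressors, 14 of 23 had a positive difference, with a median of 0.035. The LIM-only factor gene Lmo1 read 149, 128 and 169 in the knockdown-labelled cells, against 322, 199 and 220 in the restored-labelled cells. The groups do not overlap, and the difference was -0.66 ± 0.16 (unadjusted p = 0.0161, adjusted p = 0.793, limma), with 1 knockdown-labelled value under the filter. Gata3 gave 0.26 ± 0.085, the acetyltransferase gene Crebbp 0.24 ± 0.086 and the LIM-complex gene Ssbp4 -0.33 ± 0.13, each with adjusted p = 0.799.

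Upstream of the Id genes, 14 of 18 genes of BMP, TGF-beta and SMAD signalling had a positive difference, with a median of 0.11. The BMP-activated SMAD gene Smad5 read 3268, 2578 and 2885 in the knockdown-labelled cells, against 2806, 1868 and 2482 in the restored-labelled cells. The groups overlap, each mouse is higher in its knockdown-labelled cells, and the difference was 0.30 ± 0.099 (adjusted p = 0.799, limma). The receptor genes Acvr2b and Bmpr2 gave 0.77 ± 0.26 and 0.22 ± 0.092, and Smad2, which carries TGF-beta signals, -0.24 ± 0.091 (adjusted p = 0.799 for each). Acvr2b in the restored-labelled cells of mouse 279 read 137, under the filter. Among 27 other regulators of Id and E protein level, 16 had a positive difference, with a median of 0.033. Nfil3, a transcription factor gene needed for innate lymphoid development, read 288, 296 and 335 in the knockdown-labelled cells, against 639, 444 and 339 in the restored-labelled cells. The groups do not overlap, mouse 281 shows almost no gap, and the difference was -0.56 ± 0.24 (adjusted p = 0.799, limma). Zbtb17 gave -0.35 ± 0.12, the immediate early gene Egr1 0.35 ± 0.16 and the anaphase-promoting complex gene Cdc27 0.19 ± 0.100 (adjusted p = 0.799 for each).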

How the data were processed

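Per the labels' protocols, NuGEN Ovation V2 reagents amplified and labelled the RNA of the sorted cells for Affymetrix mouse arrays. The authors deposited linear intensities per probe set. How they summarized and normalized them is not stated in the labels. Of 45101 probe sets, 64 controls were left out, and 34945 of the others have exactly 1 symbol in an older probe annotation. The intensities were taken to log2(value + 16), and probe sets whose mean reached the median (143) were fitted one by one with limma 3.58.1 in R 4.3.3, with the mouse as a fixed block and Benjamini-Hochberg adjustment over 22519 probe sets. An added 16 understates fold changes of dim probe sets. The pairing comes from the labels, which state that both populations are from the same animal. Same-mouse deviations from the group means correlated at 0.27, -0.071 and -0.21. Those of different mice correlated between -0.26 and 0.31, so arrays of the same mouse were no more alike by this measure. An exact sign-flip test over 3 mice cannot go below p = 0.25 and was not run.

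The members and lists were chosen with earlier results of these data known. Text names every member probe set, Erg, up to 4 genes of smallest unadjusted p per list, and the 2 genes most like each member. Other marker genes were named after their values were seen. Of 166 list entries, 8 had no named probe set. The fit was tested on simulated arrays. The 15 alternatives changed the block, scaling, filter, probe set choice, added value, variance model, array weights and the mice used. Figures were drawn with matplotlib 3.10.9.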

Additional observations from a re-analysis of the deposited data

How the results depend on the processing

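Of 236 differences of member and Erg probe sets recomputed under 15 alternatives, 215 kept their direction and 21 turned, and no probe set passed an adjusted p of 0.05 under any of them. With no replicate block, 0 members, against 1, stood at unadjusted p below 0.05, 1291 probe sets did, and 5 list genes did on the lower side, against 2. It changed no other count by over 1.5 times. With quantile normalization the counts were 0 members and 6 higher and 4 lower list genes, and Id2 1422537_a_at gave -0.034. With arrays centred on the median they were 0 members and 5 lower list genes, with Tcf3 1427764_a_at at -0.024, Id2 1422537_a_at at -0.053 and Erg 1440244_at at -0.083. With no filter 2705 probe sets, against 1369, and 1 lower list gene reached that p. In the upper 30% there were 833 probe sets, 0 members and 6 higher list genes, and by the brightest probe set of each gene 632 and 0 members, since fewer probe sets were fitted. With trend and robust settings the 1 member was Tcf4 1416723_at (unadjusted p = 0.0196, limma) in place of Tcf12 1439209_at, and 18 higher and 1 lower list genes were counted. Array weights, which gave mouse 278 a weight of 4.09, mouse 281 0.70 and mouse 279 0.35, brought 4714 probe sets, 4 members (all Tcf12), 25 higher and 6 lower list genes, with Tcf3 1427764_a_at at -0.12, Tcf3 1452542_x_at at -0.049 and Id2 1422537_a_at at -0.38. In the 5 arrays left when the restored-labelled one of mouse 279 was dropped, with no block, 4 lower list genes were counted, with Tcf3 1427764_a_at at -0.067, Tcf4 1416724_x_at at 0.057, Tcf4 1424089_a_at at 0.033 and Id2 1422537_a_at at -0.60. When each mouse was left out, the counts ran from 1 to 2 members, 5 to 9 higher and 1 to 2 lower list genes, and 573 (without mouse 278) to 1810 probe sets. The members were Tcf4 1434149_at without mouse 278 (unadjusted p = 0.0312), Tcf12 1439209_at (0.0386) and Id2 1422537_a_at (0.0234) without mouse 279, and Tcf12 1439209_at without mouse 281 (0.0366), in limma. In the 5 arrays it was Id2 1422537_a_at (0.0148). The differences then ran from -0.15 to 0.12 for Tcf4 1416724_x_at, -0.15 to 0.095 for Tcf4 1424089_a_at, -0.066 to 0.33 for Tcf12 1439619_at, -0.025 to 0.073 for Erg 1440244_at, -0.050 to 0.22 for Tcf3 1427764_a_at, -0.0075 to 0.30 for Tcf3 1452542_x_at, -0.69 to 0.55 for Id2 1422537_a_at and -0.81 to 0.43 for Id2 1435176_a_at. Apart from the fewer probe sets fitted, the cause of these changes was not tested.

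With 3 mice the intervals of the brightest Tcf4 and Tcf12 probe sets still allow differences of up to 0.37 (1416723_at) and 0.38 (1427670_a_at) on the log2 scale. Their lower ends were -0.086 and -0.076. Other bright Tcf4 probe sets allow more, from -0.39 to 0.38 (1416724_x_at) and from -0.18 to 0.93 (1434149_at).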
